A study of Mus musculus with 20 samples.

Results

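The transcripts described here are commonly read as those of blood held in skeletal muscle. They are those of the adult alpha globin genes Hba-a1 and Hba-a2, the adult beta globin genes Hbb-bs and Hbb-bt, and Alas2. Alas2 encodes the erythroid form of the first enzyme of haem synthesis. The source of these transcripts in the muscles was not tested. These 5 genes were chosen by name, out of 55416 genes in the count table, and all 5 had enough counts to be tested. Bulk RNA was sequenced from the injected quadriceps of 20 wild-type male C57BL/6J mice, 26 to 28 months old, taken 3 h after 1 injection of 50 µL into a fasted animal. Control mice (n = 10) received 0.9% saline, and secretome-treated mice (n = 10) received the same volume of medium components released by partially differentiated human embryonic stem cells, a product that holds no cells. Each library was 1 mouse, and the reads counted on genes ranged from 13286983 to 22987237 per muscle. P-values weigh a difference or a correlation against the spread between these mice.

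Haemoglobin is a tetramer of alpha and beta globin chains, each of which holds a haem. Mature mouse red cells have no nucleus, while reticulocytes, the young red cells that have just left the marrow, still carry globin and Alas2 messenger RNA into the circulation. Muscle fibres do not make haemoglobin in quantity, so globin reads in a muscle homogenate are commonly read as a measure of the blood it held.

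The gene pairs on each chain share sequence, and this bears on every value given for a single gene of a pair. In the GENCODE M21 transcripts, the coding sequences of Hba-a1 and Hba-a2 are 429 bases long and differ at 1 base, and those of Hbb-bs and Hbb-bt are 444 bases long and also differ at 1 base. The stretches of 60 coding bases that hold these differences are shown with the differing base in capitals, because they are the only coding bases by which a read can be told apart.
Hba-a1: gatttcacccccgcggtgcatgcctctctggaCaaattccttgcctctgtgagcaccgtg
Hba-a2: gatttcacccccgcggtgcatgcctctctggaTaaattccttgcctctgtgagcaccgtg
Hbb-bs: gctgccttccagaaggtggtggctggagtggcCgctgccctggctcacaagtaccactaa
Hbb-bt: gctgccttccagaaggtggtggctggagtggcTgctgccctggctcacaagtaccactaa
The alpha stretches run from coding base 349 to 408 and the beta stretches from 385 to 444. Of all windows of 150 bases, the length of 1 read, 48.4% of those in the Hba-a1 transcript were also present in Hba-a2, and 65.7% of those in Hba-a2 were present in Hba-a1. For the beta pair, 58.7% of the Hbb-bs windows and 50.7% of the Hbb-bt windows were shared. Reads were sequenced in pairs, so a fragment can hold more bases than 1 window. The share of fragments that fit both genes was not taken. How reads that fit both genes were counted is not given in the sources used here, so the split within a pair is uncertain. The sum of a pair does not depend on that split. It would still be too low if such reads were left out, which also bears on ratios that use it.

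The promoters of the 5 genes are shown as background, and their part in the levels across muscles was not tested. Each runs from 250 bases before to 50 bases after the start in the RefSeq table for GRCm38.p6, which held all 5 genes, and is written on the strand of the gene. Capitals mark the motif GATAA, the motif CACCC, the box CCAAT and the box TATAA wherever a script found them on either strand, and touching or overlapping matches appear as 1 run.
Hba-a1, chr11:32283422-32283721, plus strand: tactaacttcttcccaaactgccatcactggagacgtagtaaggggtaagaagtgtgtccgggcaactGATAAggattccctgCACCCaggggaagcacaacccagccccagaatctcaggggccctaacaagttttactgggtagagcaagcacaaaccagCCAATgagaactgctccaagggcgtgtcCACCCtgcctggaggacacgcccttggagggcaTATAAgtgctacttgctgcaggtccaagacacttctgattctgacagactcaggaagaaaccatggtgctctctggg
Hbb-bs, chr7:103827879-103828178, minus strand: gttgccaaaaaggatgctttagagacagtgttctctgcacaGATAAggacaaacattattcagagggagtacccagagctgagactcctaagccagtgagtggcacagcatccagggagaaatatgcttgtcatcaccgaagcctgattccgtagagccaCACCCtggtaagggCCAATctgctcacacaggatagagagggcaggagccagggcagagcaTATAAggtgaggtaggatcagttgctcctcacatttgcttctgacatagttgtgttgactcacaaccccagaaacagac
Hbb-bt, chr7:103813874-103814173, minus strand: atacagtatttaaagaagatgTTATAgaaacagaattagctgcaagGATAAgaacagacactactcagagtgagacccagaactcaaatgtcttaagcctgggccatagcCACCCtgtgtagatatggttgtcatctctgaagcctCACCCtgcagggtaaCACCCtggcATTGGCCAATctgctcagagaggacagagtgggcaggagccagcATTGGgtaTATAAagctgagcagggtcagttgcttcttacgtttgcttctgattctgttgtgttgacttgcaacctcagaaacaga
Alas2, chrX:150547167-150547466, plus strand: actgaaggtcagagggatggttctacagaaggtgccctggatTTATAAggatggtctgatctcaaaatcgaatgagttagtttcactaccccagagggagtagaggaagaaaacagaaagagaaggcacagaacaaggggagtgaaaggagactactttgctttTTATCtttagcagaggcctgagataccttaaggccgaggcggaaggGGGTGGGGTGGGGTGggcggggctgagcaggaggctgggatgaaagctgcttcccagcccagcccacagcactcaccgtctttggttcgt
The Hba-a2 window, at chr11:32296242-32296541 on the plus strand, matched that of Hba-a1 at 297 of 297 bases once shifted by 3 bases. GATAA, the core of the site bound by GATA factors, was in all 5 windows and in 25.4% of 32851 promoters of this length. CACCC, the core of the site bound by Klf1 and related factors, was in all 5 and in 57.5% of promoters. Both together were in all 5 and in 12.6% of promoters. TATAA was in all 5 windows against 24.9% of promoters, and CCAAT was in the 4 globin windows, not in Alas2, against 37.4%. These matches describe the letters only.

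Summed over the 4 haemoglobin genes, the share of counts differed widely between muscles. It ranged from 0.00901% in Secretome 9 to 0.155% in Control 3, a 17.3-fold range. As library-scaled counts (CPM, TMM normalization), the sum had a lowest, median and highest value of 99.1, 254 and 1359 in control muscle and 97.7, 191 and 915.5 in secretome-treated muscle. The highest muscles were Control 3 at 1359, Secretome 8 at 915.5 and Secretome 3 at 648 CPM, followed by Secretome 7 at 544 and Control 2 at 484 CPM. The lowest were Secretome 4 at 97.7, Control 5 at 99.1 and Secretome 9 at 99.7 CPM. High and low muscles were found in both treatments. In bulk tissue, fewer red cells and less globin RNA per cell cannot be told apart.

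**Figure D1:**
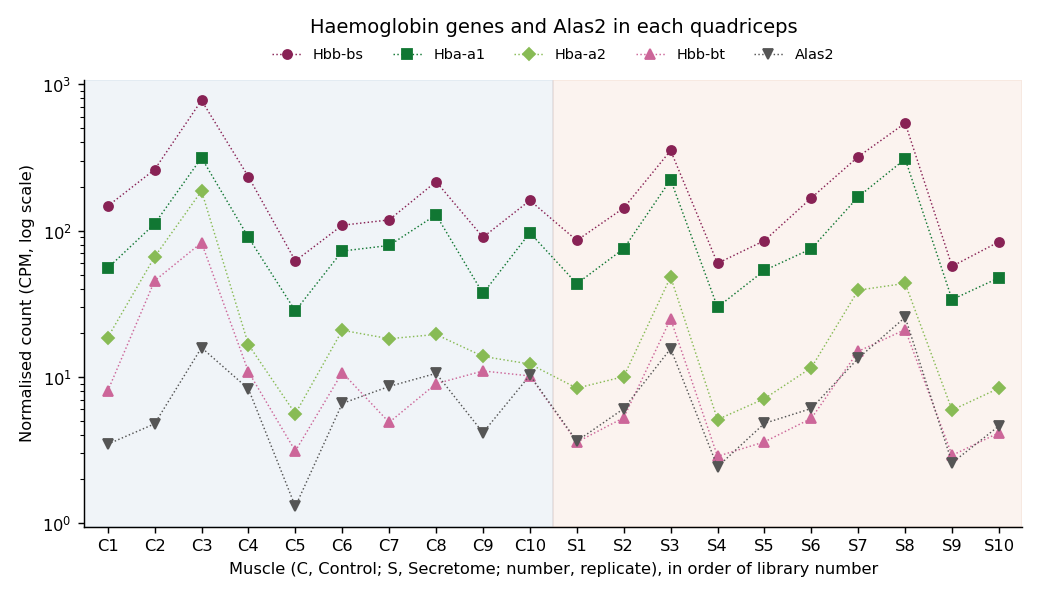
Normalised counts (CPM, log axis) of the 5 genes in each of the 20 muscles, in order of library number, with control muscles on the left (blue) and secretome-treated muscles on the right (orange). Dotted lines only link the points of 1 gene. All 5 genes were high in Control 3, Secretome 3 and Secretome 8 and low in Control 5, Secretome 4 and Secretome 9.

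Among the alpha chains, Hba-a1 had a lowest, median and highest level of 28.3, 84.5 and 314 CPM in control muscle and of 29.95, 64.3 and 309 CPM in secretome-treated muscle. The treatments overlapped over nearly their whole range. Hba-a2 ran through 5.61, 18.4 and 187 CPM in control and 5.12, 9.22 and 48.3 CPM in secretome-treated muscle. Its highest value was again Control 3, and the next control, Control 2, was also above all secretome-treated muscles, while the other control muscles lay within their range.

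Among the beta chains, Hbb-bs had levels of 62.1, 154 and 776 CPM (lowest, median and highest) in control and 57.0, 114 and 542 CPM in secretome-treated muscle, again overlapping widely. Hbb-bt ran through 3.12, 10.4 and 82.7 CPM in control and 2.87, 4.69 and 24.9 CPM in secretome-treated muscle. As for Hba-a2, Control 2 and Control 3 were the only control muscles above the highest secretome-treated one, which was Secretome 3.

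Alas2 carries out the rate-limiting step of haem synthesis in red cell precursors. It had a lowest, median and highest level of 1.30, 7.44 and 15.9 CPM in control muscle and of 2.43, 5.45 and 25.6 CPM in secretome-treated muscle. Its lowest muscle was Control 5 and its highest Secretome 8, and the treatments overlapped.

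Per kilobase of transcript, the order of mean levels over the 20 muscles was Hbb-bs (324 CPM per kb), Hba-a1 (148), Hba-a2 (51.1), Hbb-bt (20.2) and Alas2 (3.90). Within each pair this order depends on how shared reads were assigned, and the globin levels would be too low if such reads were left out.

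The spread between muscles was large for all 5 genes. The SD of log2 CPM over the 20 muscles was 1.05 for Hba-a1, 1.33 for Hba-a2, 1.06 for Hbb-bs, 1.33 for Hbb-bt and 1.03 for Alas2, against a median of 0.34 over all 14471 tested genes. This placed them between percentile 98.3 (Alas2) and 99.5 (Hba-a2) of tested genes. Counting error was a small part of it: at the lowest count of each gene, from 23 (Alas2) to 958 (Hbb-bs), it would give an SD of 0.301 to 0.047 on the log2 scale. Within libraries 6 to 15, the SD was 0.87 for Hba-a1, 0.92 for Hba-a2, 0.75 for Hbb-bs, 0.96 for Hbb-bt and 0.80 for Alas2.

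Libraries 6 to 15 are set apart as a chosen range of library numbers that held both treatments (Control 6 to 10 and Secretome 1 to 5). The other ranges used here were libraries 1 to 5 and 16 to 20. The labels do not give these bounds and name no batch. Ttn, which encodes titin, also stood apart by library number. It was at 57930 to 106000 CPM in libraries 1 to 5 (all control), 154600 to 227500 in libraries 6 to 15 and 133000 to 162300 in libraries 16 to 20 (all secretome-treated). All control muscles had lower library numbers than all secretome-treated muscles, also within libraries 6 to 15. Library number and treatment thus cannot be told apart, in that range or over all muscles. In that range, Ttn overlapped between the treatments, at 154600 to 227500 CPM in control and 178300 to 221100 CPM in secretome-treated muscle. The comparisons of the 5 genes, and those of several gene lists, are also given within it.

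The comparison of secretome with saline asked whether the treatment moved the transcripts of the 5 genes. None of the 5 genes passed a 5% false discovery rate (edgeR, quasi-likelihood F-test, Benjamini-Hochberg), where 0.00691% of all genes tested were called (1 gene, lower). At an unadjusted p under 0.05 the count was also 0 of 5, against 15.7% of all genes (6.52% higher and 9.21% lower). DESeq2 and voom likewise called 0 of the 5, at either threshold. The fitted change was below 0 for 3 of the 5, where 55.9% of all genes were below 0, so the share was near that of all genes.

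For the alpha pair, the log2 fold change of Hba-a1 was 0.07 (SE 0.476, adjusted p = 0.958) and that of Hba-a2 was -1.01 (SE 0.625, adjusted p = 0.435). With both rows added, the alpha value was -0.16 (adjusted p = 0.901). For the beta pair, Hbb-bs was at -0.20 (SE 0.487, adjusted p = 0.868) and Hbb-bt at -1.14 (SE 0.606, adjusted p = 0.368), and with both rows added the value was -0.25 (adjusted p = 0.827). Alas2 was at 0.21 (SE 0.440, adjusted p = 0.843). The intervals of 1.96 SE were wide. They ran from -0.87 to 1.00 for Hba-a1, -2.23 to 0.22 for Hba-a2, -1.15 to 0.76 for Hbb-bs, -2.32 to 0.05 for Hbb-bt and -0.66 to 1.07 for Alas2, so those of Hba-a2 and Hbb-bt lay mostly below 0.

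**Figure D2:**
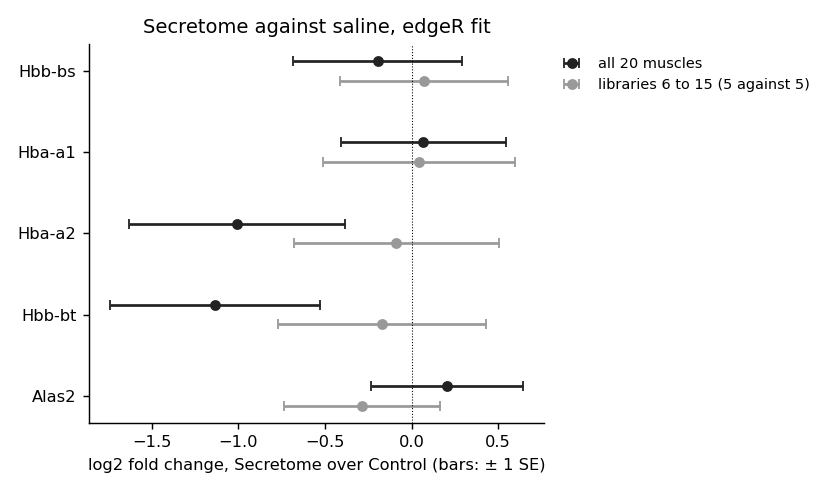
Log2 fold change of secretome over control for each gene (horizontal axis; bars are 1 SE) in edgeR's fit of all 20 muscles (black) and of libraries 6 to 15 alone (grey). The black points of Hba-a2 (-1.01) and Hbb-bt (-1.14) lie farthest from 0, and their grey points lie at -0.09 and -0.17.

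Single muscles set these values. Without Control 3, Hba-a2 was at -0.18 and Hbb-bt at -0.50, while Hba-a1 was at 0.45, Hbb-bs at 0.29 and Alas2 at 0.40. Without Secretome 8, Hba-a1 was at -0.28, Hba-a2 at -1.24, Hbb-bs at -0.53, Hbb-bt at -1.38 and Alas2 at -0.16. Hba-a1, Hbb-bs and Alas2 thus changed sign on the removal of 1 mouse. None of these values passed the false discovery rate. Hbb-bt was under an unadjusted p of 0.05 in 3 of the 20 fits with 1 muscle left out, without Secretome 8 (p = 0.0392), Secretome 3 (p = 0.0279) and Control 5 (p = 0.0466), with edgeR adjusted p of at least 0.246.

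Within libraries 6 to 15 (5 mice against 5), the log2 fold changes were 0.04 for Hba-a1, -0.09 for Hba-a2, 0.07 for Hbb-bs, -0.17 for Hbb-bt and -0.29 for Alas2, with adjusted p from 0.836 to 0.981, and 0 of 5 were under an unadjusted p of 0.05 where 9.95% of all genes were. The difference in mean log2 CPM, in which a single high muscle weighs less, was also taken. Over all 20 muscles it was -0.08 for Hba-a1 (permutation p = 0.865), -0.75 for Hba-a2 (p = 0.221), -0.25 for Hbb-bs (p = 0.608), -0.90 for Hbb-bt (p = 0.137) and 0.05 for Alas2 (p = 0.924), by two-sided permutation tests. Within libraries 6 to 15 all 5 differences were negative, from -0.17 (Hbb-bs) to -0.67 (Hbb-bt), with two-sided exact permutation p from 0.262 to 0.746. The sign of the mean log2 difference and that of the fitted fold change differed for Hba-a1 in both sets and for Hbb-bs within libraries 6 to 15.

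The 5 genes varied together from mouse to mouse. All 10 pairs had positive correlations of log2 CPM over the 20 muscles, from r = 0.677 for Hbb-bt with Alas2 (Spearman's rho = 0.723) to r = 0.968 for Hba-a1 with Hbb-bs (rho = 0.949). Permutation p adjusted over the 10 pairs ranged from 1.25e-05 to 0.00105, and the unadjusted 1e-05 behind the lowest is the smallest that 100000 resamples can give. Hba-a2 and Hbb-bt, the genes with fewer reads of each pair, were at r = 0.964 although they encode different chains. Alas2 lies on another chromosome than the globin genes and shares no coding sequence with them, and was at r = 0.934 with Hba-a1.

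These relations were also found within smaller sets of mice. In libraries 6 to 15, r ranged from 0.730 to 0.973 over the 10 pairs and all 10 passed. Without the 2 muscles farthest from the median of 1 of the genes, r ranged from 0.757 to 0.949. In secretome-treated mice alone it ranged from 0.961 to 0.995 (n = 10, permutation test, adjusted p at most 4e-05). In control mice alone it ranged from 0.522 to 0.943, and 8 of 10 pairs passed. By Spearman's rho, 2 of 10 pairs passed in control mice, 8 of 10 in libraries 6 to 15 and 10 of 10 in secretome-treated mice. The exceptions in Pearson's r in control mice were Alas2 with Hba-a2 (permutation test, adjusted p = 0.0936) and Alas2 with Hbb-bt (adjusted p = 0.124).

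The ratios within each muscle show where the genes parted. Counts of Hba-a2 were 12.7% to 59.4% of those of Hba-a1 in control muscle, with the highest values in Control 2 and Control 3, and 13.3% to 23.03% in secretome-treated muscle. Counts of Hbb-bt were 4.14% to 17.4% of those of Hbb-bs in control and 3.12% to 7.07% in secretome-treated muscle. The control mice spread more widely in both ratios, and the treatments overlapped. Both ratios moved together (r = 0.827, permutation p = 5e-05, rho = 0.635, n = 20), in control mice alone (r = 0.782), in secretome-treated mice alone (r = 0.648), in libraries 6 to 15 (r = 0.755) and without Control 2 and Control 3 (r = 0.674). By rank it was weaker in the smaller sets, at rho = 0.685 in control mice (n = 10, permutation p = 0.0342), 0.564 in secretome-treated mice (permutation p = 0.0972) and 0.442 in libraries 6 to 15 (permutation p = 0.202). This relation was chosen after its values were seen.

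Counts of Alas2 relative to the summed haemoglobin genes were 0.988% to 3.91% in control and 2.35% to 3.22% in secretome-treated muscle. The low control values were those of libraries 1 to 5, at 0.988% to 2.36%. Control muscles in libraries 6 to 10 were at 2.74% to 3.91%, and secretome-treated muscles in libraries 11 to 15 at 2.41% to 3.22%. Ttn was lowest in the same libraries 1 to 5, and its part in the ratio was not tested. Alpha counts were 43.6% to 79.1% of beta counts over all muscles.

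**Figure D3:**
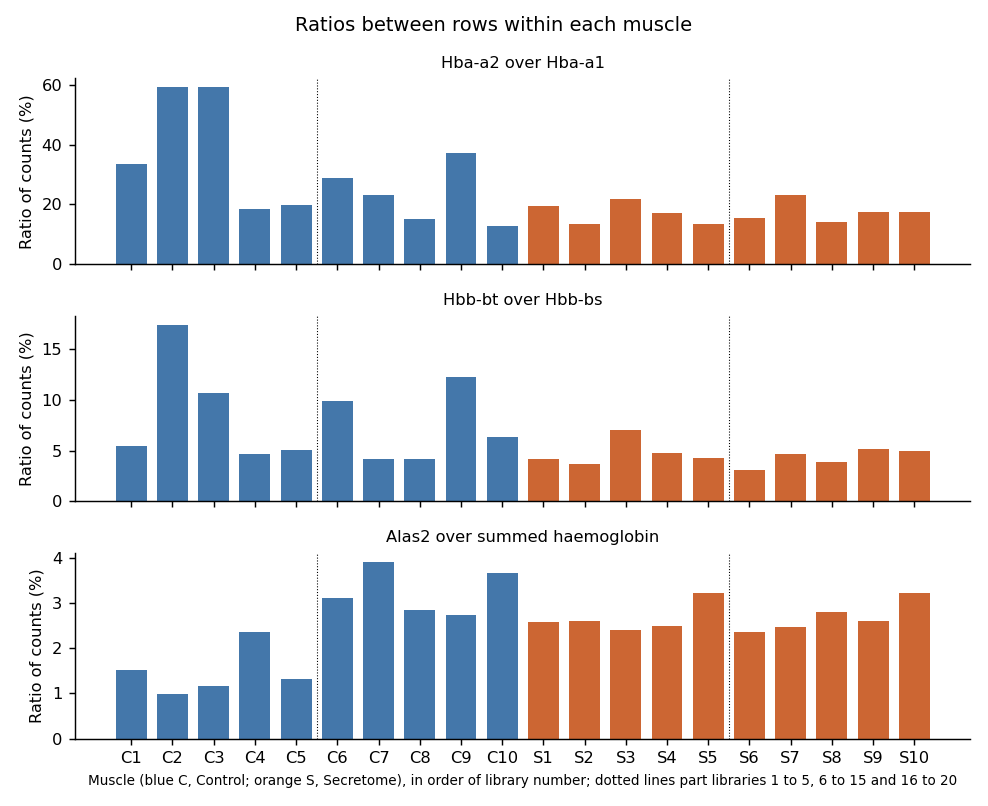
Ratio of counts (%) within each muscle for Hba-a2 over Hba-a1, Hbb-bt over Hbb-bs, and Alas2 over the 4 haemoglobin genes, in order of library number (blue, control; orange, secretome-treated; bars start at 0). Control 2 and Control 3 reach 59.4% in the upper panel, and libraries 1 to 5 lie at 0.988% to 2.36% in the lower panel.

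S100a8 and S100a9 encode the subunits of calprotectin, which neutrophils hold in quantity, and Igkc encodes the constant region of the kappa light chain of antibodies. S100a8 had a lowest, median and highest level of 0.227, 0.968 and 6.02 CPM in control and 0, 0.688 and 18.1 CPM in secretome-treated muscle. S100a9 ran through 0.0567, 1.00 and 7.82 CPM in control and 0, 0.986 and 22.8 CPM in secretome-treated muscle. Control 3, Secretome 7 and Secretome 8, which were among the 4 muscles highest in summed haemoglobin, had the 3 highest values of both.

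Secretome 3 went the other way. It came after Control 3 and Secretome 8 in summed haemoglobin, yet it held 2 counts of S100a8 (0.103 CPM) and 8 counts of S100a9 (0.412 CPM). Control 2, the fifth in summed haemoglobin, held 4 and 10 counts. Among the 5 muscles highest in haemoglobin, 3 were thus the highest in S100a8 and S100a9 and 2 were not.

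Over 20 muscles, all 15 correlations of the 5 genes with S100a8, S100a9 and Igkc were positive, and 6 passed in Pearson's r after adjustment over the 15. With S100a8, these were Hba-a1 (r = 0.532), Hbb-bs (r = 0.555) and Alas2 (r = 0.533), each at a permutation adjusted p of 0.0407. With S100a9, they were the same 3 genes at r = 0.577, 0.582 and 0.593, each at an adjusted p of 0.0403. Hba-a2 and Hbb-bt did not pass, with r from 0.377 to 0.502, although all 4 of their relations passed without Control 2, at r from 0.512 to 0.576, and without Secretome 3, at r from 0.489 to 0.572. By Spearman's rho none of the 15 passed (rho 0.208 to 0.478, lowest adjusted p = 0.105).

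The 6 calls changed with the mice left out. Without the 2 muscles farthest from the median of the globin gene, which were Control 3 and Secretome 8, r fell to 0.250 and 0.336 for Hba-a1 and to 0.289 and 0.346 for Hbb-bs (with S100a8 and S100a9 in turn). Without Control 5 and Secretome 8, Alas2 was at 0.345 and 0.351. None of the 15 then passed. All 6 also lost the call when any 1 of Control 3, Control 5, Secretome 7, Secretome 8, Secretome 9 or Secretome 10 was left out, at r from 0.394 to 0.613, and those with S100a8 also without Control 8 or Control 10. The calls were near the threshold over all 20 muscles (permutation adjusted p = 0.0403 and 0.0407). The highest r at which a call was lost, 0.613, was above the highest over all 20 muscles (0.593). A lost call thus did not always go with a lower r. Without Secretome 3 the 6 rose to between 0.657 and 0.693. Within libraries 6 to 15, all 10 correlations with S100a8 and S100a9 were negative, from -0.46 to -0.06 (n = 10, permutation adjusted p = 0.917). Libraries 1 to 5 and 16 to 20 hold 5 mice each, and no correlation was taken over so few. Within a treatment, r with S100a8 and S100a9 was 0.481 to 0.615 in control and 0.415 to 0.631 in secretome-treated mice (n = 10 each), and none passed the permutation test.

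None of the 5 correlations with Igkc passed over the 20 muscles, although without Control 2 those of Hba-a2 (r = 0.505) and Hbb-bt (r = 0.472) did, and without Secretome 3 that of Hba-a2 (r = 0.482). They ranged from 0.227 (Alas2, rho = 0.208) to 0.458 (Hba-a2, rho = 0.478), with permutation adjusted p from 0.0712 to 0.338, and within libraries 6 to 15 from -0.116 to 0.359. Whether they differ from those with S100a8 and S100a9 was not tested. Igkc had a lowest, median and highest level of 1.59, 30.8 and 182 CPM in control and 0, 3.59 and 8.24 CPM in secretome-treated muscle. All 10 secretome-treated muscles were below the control median. Its log2 fold change was -4.04 (edgeR, SE 0.922, adjusted p = 0.109), so it missed the false discovery rate, which it passed in DESeq2. The difference in its mean log2 CPM was -3.32 (permutation p = 0.00766), and -2.83 within libraries 6 to 15 (exact permutation p = 0.119). The summed haemoglobin of Control 6, the muscle with the most Igkc, was 213 CPM, below the control median.

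**Figure D4:**
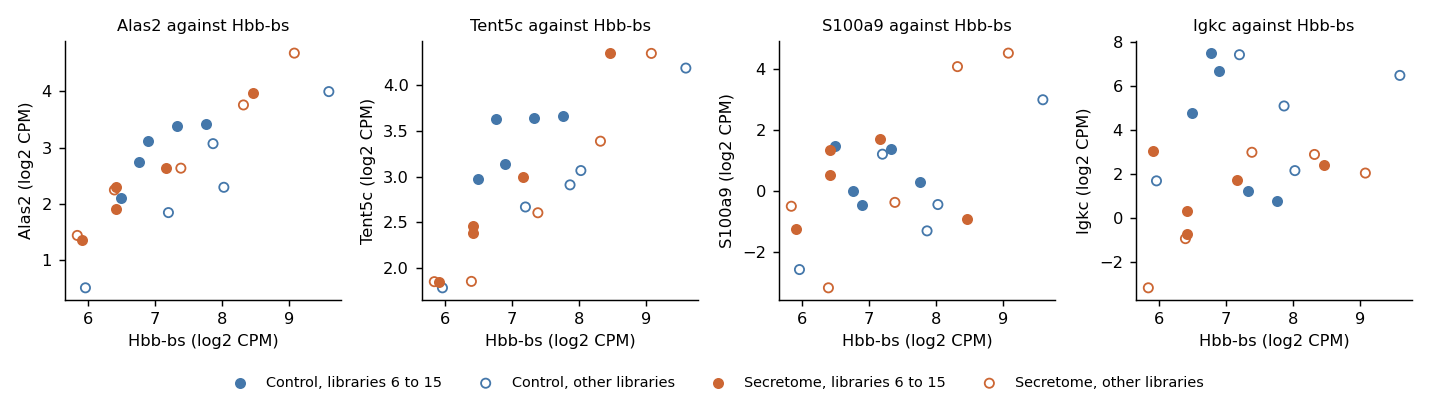
Log2 CPM of Alas2, Tent5c, S100a9 and Igkc (vertical axes) against Hbb-bs (horizontal axes), with 1 point per muscle (blue, control; orange, secretome-treated; filled, libraries 6 to 15; open, other libraries). Alas2 (r = 0.861) and Tent5c rise with Hbb-bs, while for S100a9 the points highest on the vertical axis are the open ones of Secretome 7, Secretome 8 and Control 3.

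The genes most like the summed haemoglobin level over the 20 muscles included Ube2l6, which encodes a ubiquitin-conjugating enzyme (r = 0.872), and Tent5c, which encodes a poly(A) polymerase (r = 0.872). Only 0.0207% of the 14466 tested genes other than the 5 were above r = 0.8. In libraries 6 to 15, Ube2l6 was at r = 0.878 and Tent5c at 0.931. Lower values were those of Slc35f6 (0.786), Fcer1g (0.768), Srgn (0.734), Pqbp1 (0.726), Adap1 (0.725), Mxd1 (0.724) and 2410002F23Rik (0.723). Of these, Adap1 was at 0.691 in libraries 6 to 15, Slc35f6 at 0.636, Pqbp1 at 0.548 and 2410002F23Rik at 0.492. Fcer1g, which encodes the shared gamma chain of Fc receptors, was at 0.324 in that range, Mxd1 at 0.184 and Srgn, the proteoglycan serglycin, at -0.177. The lowest correlations were those of Epm2a, the glycogen phosphatase laforin (-0.728), E430018J23Rik (-0.707) and Zmynd19 (-0.695). These correlations share library size and scaling with the sum and are given as a description.

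Red cell genes other than the 5 were measured to very different depths. Of 33 genes in a list of red cell and reticulocyte genes, 16 could be tested. Klf1 and Gata1, the regulators that define erythroid precursors, had at most 5 and 2 counts in any muscle. Of the 16, 3 had r of at least 0.6 with summed haemoglobin, against 0.774% of all genes. Among them were Tent5c and Slc4a1, which encodes the anion exchanger band 3 (r = 0.631) and had only 3 to 82 counts per muscle. The 2 tested genes of the list with the highest mean level, Sptb (525 CPM, r = -0.249) and Ank1 (308 CPM, r = -0.461), encode spectrin and ankyrin forms that skeletal muscle also makes. The median r of the list was 0.19, against 0.03 over all genes. None of the 16 passed the false discovery rate between treatments in edgeR, DESeq2 or voom, 1 was higher at an unadjusted p under 0.05 (Tfrc, the transferrin receptor, log2 fold change 0.44, and 0.50 in libraries 6 to 15, where 0 of the 16 were under that threshold), and the median log2 fold change was -0.03, against -0.03 over all genes. Slc4a1, Klf1, Gata1 and Tfrc were named after their values were seen.

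Of the other globins, the embryonic genes Hba-x, Hbb-y, Hbb-bh1 and Hbb-bh2 had 0 counts in all muscles, and Hbq1a, Hbq1b and Ngb had at most 2, 2 and 4. Myoglobin (Mb), the oxygen store of muscle fibres, was at 910 ± 637 CPM in control and 882 ± 533 CPM in secretome-treated muscle (SD, n = 10 each) and its r with summed haemoglobin was 0.08. Cytoglobin (Cygb), found in fibroblasts, was at 17.5 ± 6.02 and 11.6 ± 3.34 CPM, with a log2 fold change of -0.59 (edgeR, adjusted p = 0.168) and r = 0.589. Neither passed in edgeR, DESeq2 or voom. Their log2 fold changes within libraries 6 to 15 were -0.24 for Mb and -0.19 for Cygb.

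All 11 genes of the rest of haem synthesis were tested, and none passed in edgeR, DESeq2 or voom. At an unadjusted p under 0.05, 1 was higher: Tmem14c, a mitochondrial protein needed to move porphyrin (log2 fold change 0.26, adjusted p = 0.250), against 6.52% of all genes. Its log2 fold change was -0.01 within libraries 6 to 15, and 0 of the 11 were under that threshold. Their r with summed haemoglobin was lowest for Tmem14c (-0.41), with a median of 0.15 over the list. Alas1, the form of the enzyme used outside red cells, was at 72.6 ± 8.68 CPM in control and 82.4 ± 21.6 CPM in secretome-treated muscle (SD, n = 10 each), with r = -0.07, where Alas2 had r = 0.875. For Fech, which inserts iron into the ring, r was 0.154, for Alad 0.310, for Uros -0.07, for Urod 0.186, for Cpox -0.12, for Ppox 0.227, for Slc25a38 0.310 and for Abcb10 -0.21.

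Of 15 genes that clear haem and haemoglobin or store the iron, 13 were tested and none passed in edgeR or voom, while 1 was higher and 3 lower at an unadjusted p under 0.05, where 6.52% of all genes were higher and 9.21% lower. The higher gene was Bach1, a haem-sensing repressor (log2 fold change 0.25). The lower ones were Hmox2, the constitutive haem oxygenase (-0.43), Blvrb, a biliverdin reductase that passed in DESeq2 (-0.99), and Lrp1, the receptor of haem bound to haemopexin (-0.49), with adjusted p from 0.144 to 0.158. In libraries 6 to 15, Bach1 was at 0.11, Hmox2 at -0.31, Blvrb at -0.55 and Lrp1 at -0.34. Of these 4 genes Lrp1 was under that threshold there, with Hp (haptoglobin) and Cd163 (the receptor of its complex with haemoglobin) also lower and 0 of the 13 higher, where 4.92% of all genes were lower and 5.02% higher. Hmox1, the inducible haem oxygenase, was at 75.9 CPM in Control 3, the muscle highest in haemoglobin, against a control median of 9.89 CPM. It was at 33.1 CPM in Secretome 8 but at 4.12 CPM, the lowest of all muscles, in Secretome 3. Its r with summed haemoglobin was 0.385.

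For the remaining genes of that list the correlations were modest. Blvrb was at r = 0.496, Fth1 at 0.383, Lrp1 at 0.368, Blvra at 0.344, Hmox2 at 0.344, Ftl1 at 0.219, Cd163, the macrophage receptor for haemoglobin bound to haptoglobin, at 0.208, Nfe2l2 at 0.10 and Hp, haptoglobin itself, at 0.079. Bach1 (-0.28), the iron exporter Slc40a1 (-0.44) and the haem transporter Slc48a1 (-0.44) were below 0. The median over the 13 was 0.22.

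Markers of other blood and tissue cells moved with summed haemoglobin to different degrees. Over the 20 muscles, the median r was 0.51 for 7 tested neutrophil genes of 20, 0.42 for 3 platelet genes of 12, 0.43 for 13 monocyte and macrophage genes of 14 and 0.07 for 6 immunoglobulin and B cell genes of 18. It was -0.17 for 12 endothelial genes and -0.28 for 12 muscle genes. None of the 12 T and NK cell genes passed edgeR's filter on low counts. DESeq2, run without that filter, called 2 of them between treatments, Cd3e and Trac, which are named for that reason. The genes with the highest level in each list were at r = 0.508 for Csf3r (a neutrophil growth factor receptor), 0.410 for Pf4 and 0.424 for Itga2b (platelet genes), 0.521 for Lyz2 and 0.392 for Mrc1 (macrophage genes), -0.004 for Ighm, -0.37 for Aqp1 and -0.34 for Cdh5 (endothelium), and -0.39 for Ttn and -0.54 for Myh4 (muscle). The part of these cells in the haemoglobin values was not tested.

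**Figure D5:**
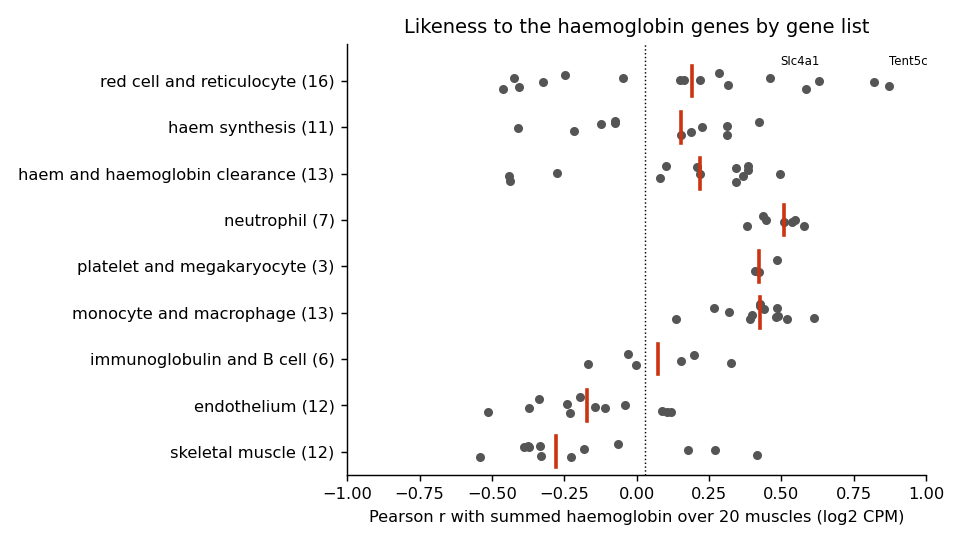
Pearson r of each tested gene with the summed haemoglobin level over 20 muscles (horizontal axis, log2 CPM), by gene list, with the number of tested genes in brackets. Points are genes, red bars are the list medians, and the dotted line is the median of all tested genes (0.03). Tent5c (0.872) and Slc4a1 (0.631) are labelled among the red cell genes.

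Summed levels of the blood cell lists were compared between treatments by their ranges. The 7 neutrophil genes summed to 5.59 to 112 CPM in control and 4.99 to 122 CPM in secretome-treated muscle. The 3 platelet genes summed to 3.62 to 10.0 and 2.75 to 7.87 CPM, and the 13 monocyte and macrophage genes to 102 to 292 and 60.1 to 232 CPM. The treatments overlapped in each of these sums. None of the genes in these 3 lists passed the false discovery rate in edgeR or voom, and Csf1r, a macrophage receptor, passed in DESeq2. At an unadjusted p under 0.05 in edgeR, 0 of 7 neutrophil, 2 of 3 platelet and 6 of 13 monocyte and macrophage genes were lower and 0 were higher, where 9.21% of all genes were lower and 6.52% higher. Within libraries 6 to 15, with 4.92% of all genes lower and 5.02% higher, 1 of 8 neutrophil, 2 of 3 platelet and 8 of 13 monocyte and macrophage genes were lower at that threshold, 0 were higher and none passed the false discovery rate. Csf1r was at a log2 fold change of -0.76 over all muscles and -0.82 in libraries 6 to 15 (edgeR, adjusted p = 0.150 and 0.404), and was named after its values were seen.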

How the data were processed

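Total RNA of 20 quadriceps muscles was made into stranded libraries, and the authors deposited whole-number read counts per gene, not normalized, in 1 column per mouse. Per the submitters' processing notes, cutadapt 1.16, STAR 2.7.9a, featureCounts 1.6.3 and DESeq2 1.34.0 were used with GRCm39, and their settings for reads that fit several genes are not given in the sources used here. The labels name myotubes in the extraction text and quadriceps as tissue, and muscle genes were abundant in every library. Whether vessels were flushed is also not given there.

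Gene symbols came from GENCODE M21 by Ensembl identifier (52083 of 55416). filterByExpr of edgeR 4.0.16 (R 4.3.3) kept 14471 genes, which were normalized with TMM and tested with the robust quasi-likelihood F-test. P-values were adjusted with Benjamini-Hochberg over all tested genes. SE is the fitted log2 change divided by the square root of its F. Levels are CPM, and correlations used log2 CPM with a prior count of 2 and two-sided permutation p (100000 resamples). Summed haemoglobin is the sum of the 4 globin genes. Counting error was taken as Poisson and covers counting only.

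The genes and lists were chosen with earlier results of these data known. Named genes were the 5, S100a8, S100a9, Igkc, all tested genes of the lists other globins, haem synthesis and clearance, the 2 most abundant tested genes of each other list, and the 10 genes highest and 3 lowest in r with summed haemoglobin. Some genes that this rule names are not reported here. Alternatives were DESeq2 1.42.0, voom with quality weights (limma 3.58.1), RLE scaling, no TMM, no filter, the replicate block, libraries 6 to 15, the 3 library ranges as a term, a prior count of 0.5, centring by treatment, pairs added and each muscle left out, and the gene lists within libraries 6 to 15 were added after the data were seen. The labels do not say whether mice with the same replicate number were paired. Correlations of same-numbered deviations over all tested genes ranged from -0.24 to 0.221, with 2 of 10 over the limit set. These correlations cannot exclude a pairing.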

Additional observations from a re-analysis of the deposited data

How the results depend on the processing

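No gene of the 5 passed the false discovery rate under any alternative run, and the 10 correlations among them stayed positive under each alternative run for correlations (no TMM, a prior count of 0.5, centring, libraries 6 to 15, the 2 farthest muscles left out and each muscle left out). The sign of a fold change depended on the setting where the value was near 0. Hba-a1 was at -0.0545 with voom, -0.0205 without TMM and -0.0722 with the replicate block. The sum of Hba-a1 and Hba-a2 was at -0.16. Hbb-bs was at 0.0713 in libraries 6 to 15 and 0.0669 with the library ranges as a term, and Alas2 at -0.29 and -0.29. With muscles left out in turn, Hba-a1 ranged from -0.28 to 0.45, Hba-a2 from -1.27 to -0.18, Hbb-bs from -0.53 to 0.29, Hbb-bt from -1.45 to -0.50 and Alas2 from -0.16 to 0.40. The replicate block changed no call of the 5 genes, but their SE was smaller with it. For Hba-a1 it was 0.266 with the block and 0.476 without, and for Hba-a2 0.393 and 0.625. Whether the numbers pair the mice is not known. For all genes, the number past the false discovery rate was 203 with DESeq2, 3 with voom, 0 without TMM, 0 in libraries 6 to 15, 0 with the ranges as a term and 0 to 15 with muscles left out (15 without Control 5), against 1 in edgeR.

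The calls of the correlations with S100a8 and S100a9 changed with the processing. With a prior count of 0.5 none passed: Hba-a1 was at 0.499 and 0.560, Hbb-bs at 0.528 and 0.566 and Alas2 at 0.495 and 0.575 (S100a8, then S100a9), with adjusted p from 0.051. Hba-a2 with S100a9 passed without TMM (0.522) and centred by treatment (0.552), and so did Hbb-bt centred (0.528). With 1 muscle left out, Hba-a2 gained the call with S100a8 in 2 of 20 runs, with S100a9 in 5 and with Igkc in 2, and Hbb-bt in 2, 2 and 1, among them the runs without Control 2, where Hba-a2 and S100a9 were at 0.576 (adjusted p = 0.0278). Without the 2 farthest muscles, r was 0.250 and 0.336 for Hba-a1, 0.289 and 0.346 for Hbb-bs and 0.345 and 0.351 for Alas2. In libraries 6 to 15, r with S100a8 and S100a9 was -0.277 and -0.188 for Hba-a1, -0.460 and -0.257 for Hba-a2, -0.215 and -0.091 for Hbb-bs, -0.348 and -0.057 for Hbb-bt and -0.273 and -0.105 for Alas2, and with Igkc it was -0.064 for Hba-a1 and -0.116 for Hbb-bs. With muscles left out in turn, r with S100a8 ranged from 0.400 to 0.693 for Hba-a1, 0.309 to 0.537 for Hba-a2, 0.445 to 0.681 for Hbb-bs, 0.256 to 0.512 for Hbb-bt and 0.394 to 0.674 for Alas2. With S100a9 it ranged from 0.463 to 0.679, 0.419 to 0.576, 0.482 to 0.657, 0.370 to 0.561 and 0.476 to 0.681 in the same order, and with Igkc from 0.360 to 0.505 for Hba-a2 and 0.300 to 0.485 for Hbb-bt. The cause of these changes was not tested. S100a8 and S100a9 had as few as 0 counts in a muscle, which limits every value that rests on them.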
